A study of Mus musculus with 35 samples.

Results

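*Dppa2*, *Dppa4* and *Dppa5a* are 3 developmental pluripotency associated genes, which were taken by symbol from a table of 54446 mouse genes, and each symbol matched 1 gene. Their transcript levels were read in 27 bulk RNA-seq libraries in 9 groups of 3. The embryo groups were the inner cell mass at E3.5 and the epiblast on each day from E4.5 to E7.5. The embryos were labelled as untreated, wild-type, of strain CD-1 and of both sexes, without an assignment of sex to a library. Each embryo library was a pool. The inner cell mass was cut out with a laser, whereas E4.5 cells came from immunosurgery of a *Pdgfra*:H2B-GFP line and were hand-picked as GFP-negative cells. From E5.5 on, extra-embryonic ectoderm and visceral endoderm were removed by hand, and at E7.5 the allantois as well.

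The culture groups were all wild-type. EpiLCs are epiblast-like cells, here embryonic stem cells (ESCs) kept for 48 h in FGF2 and Activin A, and model the formative epiblast. EpiSCs are epiblast stem cells in 2D, converted from ESCs with FGF2 and Activin A, and model the primed epiblast. ESC3D and Embryo3D are 3D epiblast stem cells grown in Matrigel with FGF2, Activin A, the tankyrase inhibitor XAV and the BMP antagonist Noggin, started from ESCs and from E5.5 epiblasts respectively. No untreated ESCs were analysed here. The labels do not say that the culture replicates were separate cultures, so p-values for cultures measure the spread between these libraries. The study asked which embryonic stage the 3D cultures resemble, and these 3 genes mark the way from naive to primed pluripotency.

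Dppa2 and Dppa4 are nuclear proteins with a SAP domain that bind chromatin as partners. In ESCs they are known to keep promoters of silent developmental and germline genes accessible and free of DNA methylation, and to activate Dux and, through it, genes of the 2-cell embryo such as the *Zscan4* family. Dppa5a, also called Esg1, is unrelated to them in sequence. It carries a KH-like domain, binds RNA, and is abundant in naive pluripotent cells and in the germline.

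*Dppa4* (ENSMUSG00000058550.15) lies on mm10 chromosome 16, from 48283733 to 48294237 on the plus strand. *Dppa2* (ENSMUSG00000072419.5) follows it on the same strand, from 48303908 to 48319723, with 9670 bases between them. *Dppa5a* (ENSMUSG00000060461.5) lies on chromosome 9, from 78367052 to 78368177 on the minus strand, and its single annotated transcript has 3 exons and 619 bases. All 3 are protein-coding. Near *Dppa5a* lie the pseudogenes *Dppa5b* and *Dppa5c*, whose transcripts were 96.3% identical to that of *Dppa5a* over 299 aligned positions, so reads could be split between the copies. Both copies together held 0.297% to 0.947% of the summed level in the E3.5, E4.5 and EpiLC libraries, and both were listed at 0 in every other library.

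Levels are given in TPM, a gene's share of a library's transcripts after division by transcript length, so different genes can be set side by side. A value of 0 is described as listed at 0, because 26 of 5227 genes with a median TPM above 20 were also listed at 0 in at least 1 library. TPM keeps no record of depth. In bulk RNA, fewer cells of a type and less RNA per cell cannot be told apart. The E5.5 to E7.5 libraries carried visceral endoderm transcripts and the E3.5 and E4.5 libraries carried trophectoderm transcripts, and their values are given beside the steps they move with. In 3 of the culture groups a pair of libraries was closer than the others, with a median absolute difference of 0.0610, 0.0569 and 0.0649 on the log2 scale for ESC3D, Embryo3D and EpiSC, against 0.131 to 0.271 for the other pairs of these groups. Averaging these pairs changed no call on the 3 genes.

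*Dppa2* was high in the inner cell mass and fell at every step to E7.5. The level was 123, 121 and 124 TPM in the 3 E3.5 libraries and 49.4, 50.8 and 48.2 TPM at E4.5. After implantation it was 5.25, 6.24 and 5.62 TPM at E5.5 and 1.36, 1.27 and 2.05 TPM at E6.5. At E7.5 it was 0.272 and 0.187 TPM in replicates 1 and 3 and listed at 0 in replicate 2. No stage overlapped with the next.

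*Dppa4* was as high at E4.5 as at E3.5, and fell at each later step. It was 71.8, 76.9 and 85.6 TPM at E3.5 and 82.1, 95.8 and 101.8 TPM at E4.5. The ranges of these stages overlapped. It was 26.2, 24.7 and 26.4 TPM at E5.5, and 7.15, 9.46 and 6.25 TPM at E6.5. At E7.5 it was 0.276 and 0.211 TPM in replicates 1 and 3 and listed at 0 in replicate 2, so that from E4.5 on each stage lay below the one before it.

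*Dppa5a* was the most abundant of the 3 genes in every library up to E6.5. It was 1099.9, 1113 and 966 TPM at E3.5 and 589.6, 708 and 695 TPM at E4.5, at mean percentiles of 99.7 and 99.4 among the 20774 autosomal protein-coding genes. At E5.5 it was 35.4, 32.6 and 32.5 TPM, and at E6.5 it was 14.2, 19.5 and 17.7 TPM. At E7.5 it was listed at 0 in replicates 1 and 2 and at 1.16 TPM in replicate 3. Every stage lay below the stage before it. Replicate 2 of E7.5 listed all 3 genes at 0.

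In the cultures, all 3 genes were high in EpiLCs and near 0 elsewhere. *Dppa2* was 118, 117 and 124 TPM in EpiLCs. It was 0.325, 0.385 and 0.486 TPM in ESC3D, 0.803, 0.420 and 0.229 TPM in Embryo3D, and 0.448, 0.140 and 0.446 TPM in EpiSCs. The 9 libraries of these 3 groups overlapped, and none reached 1 TPM.

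*Dppa4* was 123, 149.6 and 100.4 TPM in EpiLCs. It was 0.222, 0.128 and 0.930 TPM in ESC3D and 0.262, 0.238 and 0.0974 TPM in Embryo3D. In EpiSCs it was 0.411 and 0.664 TPM in replicates 1 and 3 and listed at 0 in replicate 2. ESC3D replicate 3 was the highest of these 9 libraries.

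*Dppa5a* was 1021, 1659 and 1320.1 TPM in EpiLCs and had the widest spread of the 3 genes there. It was 0.971, 0.549 and 0.811 TPM in ESC3D, 0.723, 0.139 and 0.186 TPM in Embryo3D, and 0.816, 1.35 and 0.884 TPM in EpiSCs. The EpiSC libraries all lay above the Embryo3D libraries, and both overlapped with ESC3D.

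**Figure D1:**
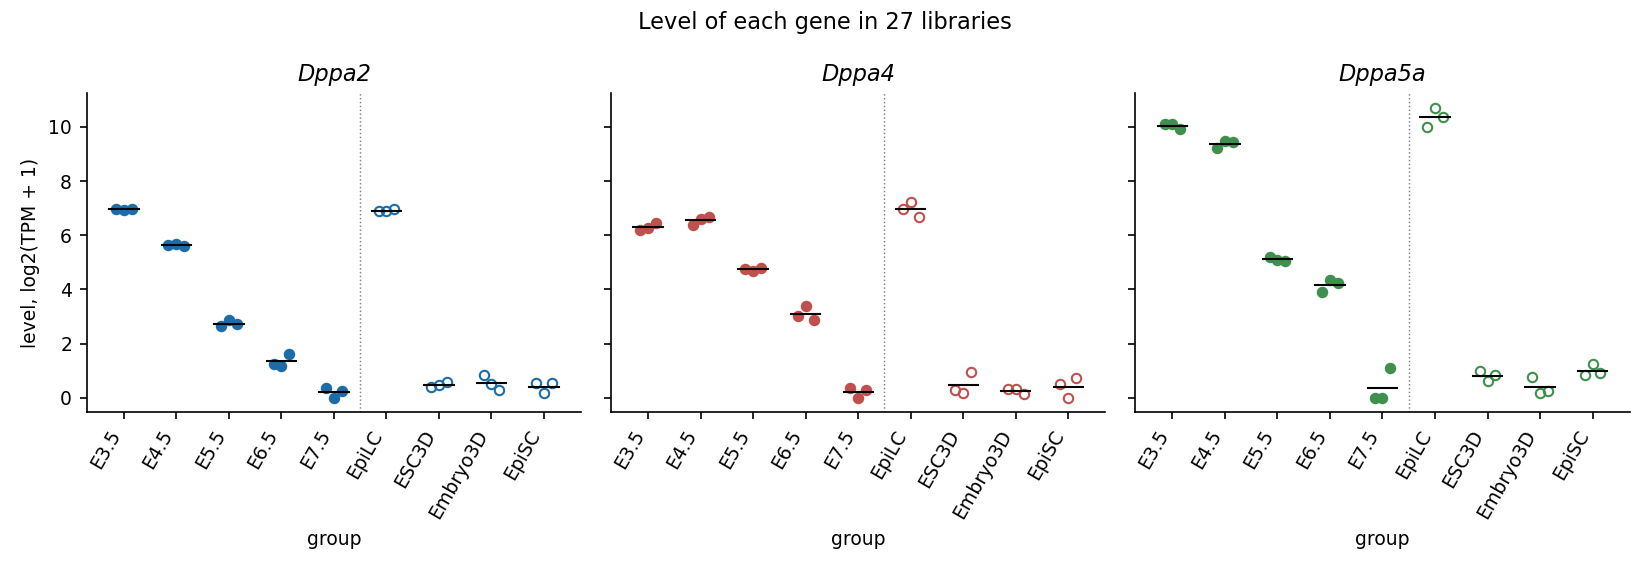
Level of each gene as log2(TPM + 1) on the y axis in each of 27 libraries, by group on the x axis, with embryo stages as filled points, cultures as open points, and the group mean as a bar. The embryo points step down from E3.5 or E4.5 to about 0 at E7.5, and of the cultures the EpiLC points stand apart from the rest.

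Each step between stages was tested with limma on log2(TPM + 1) in a single fit of the 15 embryo libraries. Calls required a log2 difference above 1 in size and a p below 0.05 after Benjamini-Hochberg adjustment over 11880 genes. Differences are in log2 units and understate the change of low genes, because 1 is added to each TPM.

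From E3.5 to E4.5 *Dppa2* was the only one of the 3 genes called lower, in a comparison where 11.9% of genes were called lower. It fell by 1.30 (SE 0.12, adjusted p = 6.50e-07), to 40.2% of its mean TPM. *Dppa5a* was lower by 0.67 (log2 difference -0.67, SE 0.23, adjusted p = 0.0254), below the size required. *Dppa4* differed by 0.25 (95% interval -0.05 to 0.55, adjusted p = 0.142). Summed over the 10 naive pluripotency markers, the level was 1605 to 1685 TPM at E3.5 and 689 to 723 TPM at E4.5, with all 10 above 2 TPM on average at E3.5 and 9 at E4.5. The 7 trophectoderm and extra-embryonic ectoderm markers summed to 3112 to 3174 TPM at E3.5 and 2746 to 2930 TPM at E4.5. *Krt18* (1682 and 1666 TPM) and *Krt8* (999 and 787 TPM) made up most of that sum, and the trophoblast transcription factors *Elf5* (127 TPM) and *Tfap2c* (122 TPM) were higher at E4.5 than *Nanog* (14.4 TPM), which marks the epiblast. Other epiblast markers lay on both sides of *Elf5* and *Tfap2c* at E4.5. *Pou5f1* (378 to 420 TPM) and *Dnmt3b* (410 to 468 TPM) were higher than these factors, and *Sox2* (28.7 to 37.4 TPM) was lower. The 7 endoderm markers summed to 445 to 458 TPM at E3.5, where *Ttr* was listed at 0, and to 59.7 to 76.0 TPM at E4.5. The part of these markers in the step was not tested.

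From E4.5 to E5.5, across implantation, all 3 genes were called lower, and so were 9.47% of all genes tested. Mean TPM was 8.67-fold lower for *Dppa2*, 3.62-fold lower for *Dppa4* and 19.8-fold lower for *Dppa5a*. The log2 difference was -2.91 (SE 0.12) for *Dppa2*, -1.81 (SE 0.14) for *Dppa4* and -4.27 (SE 0.23) for *Dppa5a*, with adjusted p-values of 1.12e-10, 7.73e-08 and 2.72e-09 in limma. The *Dppa5a* difference was the 56th lowest of 11880. Across the same step the naive list was at 67.6 to 73.1 TPM in sum at E5.5, the trophectoderm list at 332 to 364 TPM and the endoderm list at 532 to 570.0 TPM. In sum the 7 formative and primed epiblast markers were at 985 to 1022 TPM at E4.5 and 3147 to 3331 TPM at E5.5. The part of other cells in this step was not tested, and RNA of E3.5 and E4.5 was fragmented at another temperature and for another time than RNA of the later stages, which cannot be told apart from the step.

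From E5.5 to E6.5, both *Dppa2* and *Dppa4* were called lower. This step had few changes, with 0.48% of genes called lower. *Dppa4* fell by 1.65 (SE 0.14, adjusted p = 7.20e-06) and was the 11th lowest difference of 11880, and *Dppa2* fell by 1.40 (SE 0.12, adjusted p = 7.50e-06) and was the 21st lowest. Mean TPM was 3.38-fold lower for *Dppa4* and 3.66-fold lower for *Dppa2*. The *Dppa5a* difference was -0.94 (SE 0.23, adjusted p = 0.0218) and was not called by its size, with a mean TPM 1.96-fold lower. Without E6.5 replicate 2, the highest of its group, it was -1.04 and was called. The endoderm list was at 837 to 902 TPM in sum at E6.5, of which *Apoa1* made up 560.0 TPM on average, and the 5 streak and mesoderm markers were at 90.9 to 97.4 TPM at E5.5 and 273 to 340.0 TPM at E6.5. Their part in the step was not tested.

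From E6.5 to E7.5 all 3 genes were called lower, against 1.94% of all genes tested. The log2 difference was -1.14 (SE 0.12) for *Dppa2*, -2.88 (SE 0.14) for *Dppa4* and -3.80 (SE 0.23) for *Dppa5a*, with adjusted p-values of 4.11e-06, 2.05e-09 and 2.41e-08. These sizes depended on the constant added, and with 0.1 in place of 1 they were -2.88, -5.07 and -6.20. At E7.5 the epiblast list was at 911 to 946 TPM in sum and the endoderm list at 931 to 956 TPM, and *Pou5f1* was at 251 TPM. Their part in the step was not tested.

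Between the ends of the series, E3.5 and E7.5, the differences were -6.76 for *Dppa2*, -6.09 for *Dppa4* and -9.68 for *Dppa5a*, which was the lowest of all 11880 genes. All 3 were called lower (adjusted p = 1.50e-14, 1.49e-13 and 2.56e-13 in limma), as were 13.4% of genes. The median difference of all genes tested was 0.30 here and 0.31 from E6.5 to E7.5, and between -0.10 and 0.16 at the other steps. Relative to it, the falls of the 3 genes at these 2 comparisons were larger by that much, and rescaling the libraries changed no call on them.

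Against EpiLCs, all 3 genes were called lower in ESC3D, Embryo3D and EpiSCs, in a single limma fit of the 12 culture libraries over 11541 genes. Of all genes, 7.11% were called lower in ESC3D, 8.28% in Embryo3D and 5.14% in EpiSCs. The 3 genes passed the filter on low values, a TPM above 2 in at least 3 libraries, only through the EpiLC libraries, so they had to differ and their calls add no support. The 3 comparisons share the EpiLC libraries.

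*Dppa2* differed from EpiLCs by -6.43 in ESC3D, -6.36 in Embryo3D and -6.49 in EpiSCs (log2 differences, each SE 0.14, adjusted p = 5.24e-11, 3.93e-11 and 6.21e-11). *Dppa4* differed by -6.48 in ESC3D, -6.69 in Embryo3D and -6.54 in EpiSCs (each SE 0.23, adjusted p = 1.78e-09, 9.16e-10 and 1.52e-09). *Dppa5a* differed by -9.53, -9.95 and -9.35 in the same order (each SE 0.20, adjusted p = 5.24e-11, 3.49e-11 and 6.21e-11), and was the lowest of all 11541 genes in each comparison. Mean TPM of *Dppa2* was 0.333% of the EpiLC mean in ESC3D, 0.405% in Embryo3D and 0.288% in EpiSCs.

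Among ESC3D, Embryo3D and EpiSCs no difference of the 3 genes was called in limma. Group means of log2(TPM + 1) there were at most 0.55 for *Dppa2*, 0.47 for *Dppa4* and 1.00 for *Dppa5a*. At such levels a difference above 1 in size was hardly possible, so the lack of calls does not show equal levels. Of 9 differences, 1 had an unadjusted p below 0.05. In these comparisons 3.96% of all genes were called in either direction between ESC3D and Embryo3D, 9.89% between ESC3D and EpiSCs, and 8.82% between Embryo3D and EpiSCs. The exception was *Dppa5a*, at -0.60 in Embryo3D minus EpiSC (95% interval -1.03 to -0.16, adjusted p = 0.0398 in limma), below the size required. With 0.1 added in place of 1 it was -1.51 and was called. For *Dppa2*, the intervals of the 3 differences lay within -0.38 and 0.44, and for *Dppa4* within -0.65 and 0.71.

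**Figure D2:**
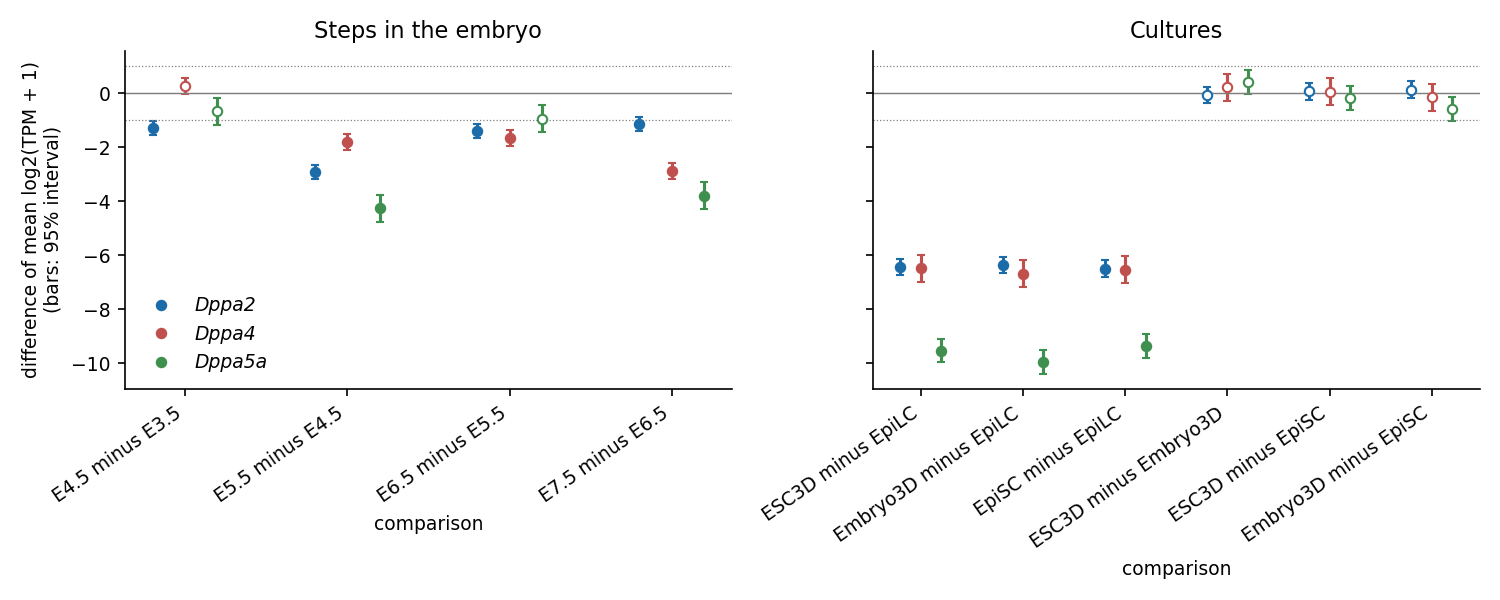
Difference of mean log2(TPM + 1) on the y axis with its 95% interval from limma, for the 3 genes, by comparison on the x axis, with embryo steps on the left and cultures on the right. Filled points were called, open points were not, and dotted lines mark a difference of 1 in either direction. All 3 genes were called from E4.5 to E5.5 and from E6.5 to E7.5, and the differences from EpiLCs lay between -9.95 and -6.36.

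The marker lists were read in the same cultures. The 7 formative and primed epiblast markers summed to 3122 to 3475 TPM in EpiLCs and to between 3140 and 3542 TPM in the other cultures, all 7 above 2 TPM on average in each group. The naive list was at 132 to 142 TPM in EpiLCs and 119 to 288 TPM in the others, mostly *Nanog*, which was at 71.7 TPM in EpiLCs and 104 to 200 TPM in the others. Of the 6 naive markers tested, 2 were called higher than in EpiLCs and 2 lower in ESC3D, 3 higher and 2 lower in Embryo3D, and 1 higher and 2 lower in EpiSCs. Of all genes, 5.33% were called higher and 7.11% lower in ESC3D, 10.5% and 8.28% in Embryo3D, and 15.2% and 5.14% in EpiSCs. *Zfp42* passed the filter in cultures only through EpiLCs, so its differences add no support. *Esrrb* was above 2 TPM in every EpiLC library and elsewhere in cultures only in EpiSC replicate 3 (2.15 TPM). Without EpiLCs *Esrrb* would not have passed, so its differences from EpiLCs add no support either. *Klf4* was at 2.08 TPM in EpiLCs, 16.5 TPM in ESC3D and 17.0 TPM in Embryo3D, and *Zfp42* was at 36.3 TPM in EpiLCs and at most 0.868 TPM on average elsewhere. Endoderm markers summed to 1.01 to 1.63 TPM in EpiLCs, where *Ttr* was listed at 0, to 12.7 to 26.1 TPM in Embryo3D and to 47.1 to 63.6 TPM in EpiSCs. In ESC3D they summed to 0.762 to 13.8 TPM, with a median of 0.846 TPM. The streak and mesoderm list was at 5.07 to 8.34 TPM in EpiLCs, 54.1 to 57.6 TPM in ESC3D, 97.1 to 195 TPM in Embryo3D and 83.2 to 94.1 TPM in EpiSCs, and all 3 of its genes tested were called higher than in EpiLCs in each. Of these, *T* and *Mixl1* lay below 2 TPM in every EpiLC library and passed the filter only through the other cultures, so their calls add no support. Trophectoderm markers were 42.7 to 63.3 TPM in EpiLCs and 564 to 724 TPM in EpiSCs, with *Krt8* and *Krt18* leading. The 6 germ cell markers summed to 39.4 to 43.2 TPM in EpiLCs, where *Dazl* was at 11.6 to 15.1 TPM, and to 36.1 to 50.2 TPM in EpiSCs, where *Dazl* was listed at 0 and *Kit* was at 29.6 TPM. The part of these markers in the differences was not tested.

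Embryo and culture libraries were made with different kits, from total RNA and from poly-A RNA, so kit and origin cannot be told apart and the levels are only set side by side. For *Dppa2* the order was E3.5 (122.9 TPM) and EpiLCs (119.6 TPM), whose libraries overlapped, then E4.5 (49.4 TPM), E5.5 (5.70 TPM) and E6.5 (1.56 TPM). For *Dppa4* it was EpiLCs (124 TPM), E4.5 (93.2 TPM) and E3.5 (78.1 TPM), each overlapping with its neighbour in that order, then E5.5 (25.8 TPM) and E6.5 (7.62 TPM). For *Dppa5a* it was EpiLCs (1333 TPM) and E3.5 (1059 TPM), which overlapped, then E4.5 (664 TPM), E5.5 (33.5 TPM) and E6.5 (17.1 TPM). For all 3 genes the EpiLC libraries overlapped with those of a pre-implantation stage, and the EpiLC mean was 21.0-fold the E5.5 mean for *Dppa2*, 4.83-fold for *Dppa4* and 39.8-fold for *Dppa5a*. The 3 primed cultures and E7.5 were the lowest 4 groups for each gene, and lay below every E6.5 library. Libraries of these groups overlapped, except that *Dppa2* in ESC3D lay above E7.5 and *Dppa5a* in EpiSCs lay above Embryo3D.

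The 3 genes did not fall in proportion in the embryo. The ratio between 2 genes was taken as log2 of the TPM + 1 of one over that of the other, and tested with a one-sided exact permutation test on F, adjusted over 6 tests (3 pairs, in embryos and in cultures). *Dppa4* over *Dppa2* was -0.65 ± 0.12 at E3.5, 0.90 ± 0.17 at E4.5, 2.00 ± 0.15 at E5.5 and 1.75 ± 0.48 at E6.5 (SD, n = 3). *Dppa2* thus exceeded its neighbour at E3.5, with a mean TPM 1.57-fold higher, and lay below it from E4.5 on, by 4.52-fold at E5.5. The exact permutation p was 5.00e-06 (adjusted p = 1.50e-05, with 7.14e-07 the smallest p these 1401400 groupings can give). The ratio was near 0 at E7.5 (0.00 to 0.03), where both genes were near 0.

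*Dppa5a* over *Dppa4* was 3.75 ± 0.23 at E3.5, 2.82 ± 0.06 at E4.5, 0.37 ± 0.07 at E5.5 and 1.08 ± 0.25 at E6.5 (SD, n = 3). The libraries of these 4 stages did not overlap. In mean TPM *Dppa5a* was 13.6-fold *Dppa4* at E3.5 and 1.30-fold at E5.5 (exact permutation p = 1.50e-05, adjusted p = 3.00e-05). *Dppa5a* over *Dppa2* moved less, at 3.09 ± 0.13, 3.72 ± 0.15, 2.37 ± 0.16 and 2.83 ± 0.31 over the same stages (exact permutation p = 3.57e-06, adjusted p = 1.50e-05). RNA fragmentation changed between E4.5 and E5.5, and for all 3 ratios it cannot be told apart from the stages at that step. Without E7.5, where the constant of 1 sets the ratios, the exact permutation p of the 3 ratios in embryos was 0.000455 for *Dppa4* over *Dppa2*, 6.49e-05 for *Dppa5a* over *Dppa4* and 0.000325 for *Dppa5a* over *Dppa2*, with 6.49e-05 the smallest p possible.

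In the cultures *Dppa4* over *Dppa2* was 0.04 ± 0.33 in EpiLCs, and its group means elsewhere lay between -0.29 and -0.01 (exact permutation p = 0.486 over 15400 groupings, adjusted p = 0.486). The *Dppa4* mean in EpiLCs was 1.04-fold that of *Dppa2*. *Dppa5a* over *Dppa2* was 3.44 ± 0.36 in EpiLCs and between -0.14 and 0.58 elsewhere (exact permutation p = 0.000455, adjusted p = 0.000682). *Dppa5a* over *Dppa4* was 3.40 ± 0.34 in EpiLCs and between 0.15 and 0.59 elsewhere (exact permutation p = 0.00877, adjusted p = 0.0105). The constant of 1 draws ratios of low genes to 0, and with 0.1 the p of the last ratio was 0.0816 in the exact permutation test.

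**Figure D3:**
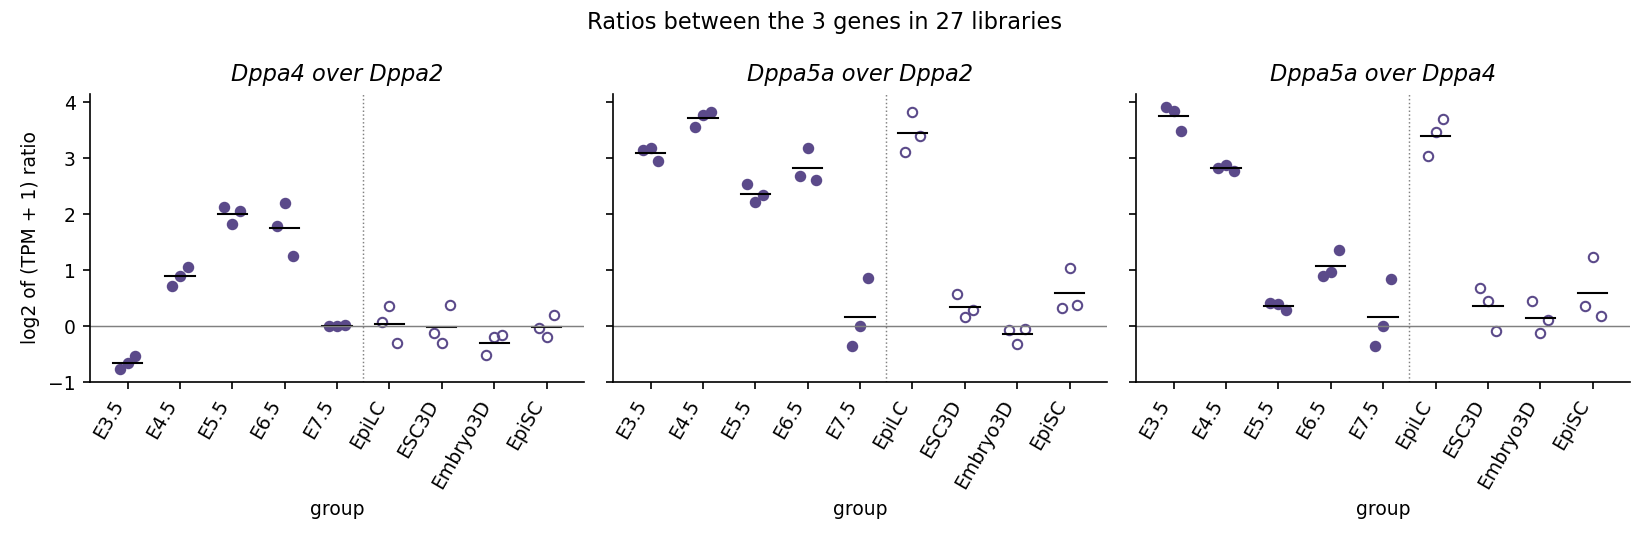
Ratio between 2 genes as log2 of (TPM + 1) over (TPM + 1) on the y axis in each of 27 libraries, by group on the x axis, with embryo stages as filled points, cultures as open points and group means as bars. *Dppa4* over *Dppa2* went from -0.65 at E3.5 to 2.00 at E5.5, while *Dppa5a* over *Dppa4* went from 3.75 to 0.37.

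The genes on either side were read from the same table, as the nearest 2 autosomal protein-coding genes in each direction. *Morc1*, a germline gene of transposon silencing, starts 111513 bases after *Dppa2*. Its mean TPM was 13.3 at E3.5, 26.0 at E4.5, 0.700 at E5.5 and 0.147 at E6.5, it was listed at 0 at E7.5, and it fell by 3.99 from E4.5 to E5.5 (SE 0.12, adjusted p = 9.09e-12 in limma). It passed the filter in embryos only through E3.5 and E4.5 libraries, so this difference adds no support. In EpiLCs it was 23.7, 44.1 and 38.8 TPM, and it was called lower in ESC3D, Embryo3D and EpiSCs, by 4.94 to 5.08 log2 units. *Gm5485*, between *Dppa2* and *Morc1*, was listed at 0 on average in all 9 groups. With rescaled libraries *Morc1* was also called higher from E3.5 to E4.5. On the other side *Nectin3*, which encodes a cell adhesion protein, lies 1785207 bases before *Dppa4*. It was at 4.55 TPM at E3.5 and 13.2 TPM at E4.5, where it was called higher (5.88% of genes were), and at 30.5 to 59.7 TPM in the cultures with none of its 3 differences from EpiLCs called, though with rescaled libraries it was called lower in Embryo3D. *Gm4737* was called in none of the 4 steps and none of the comparisons with EpiLCs, though with rescaled libraries it was called lower from E6.5 to E7.5.

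Beside *Dppa5a*, *Ooep* lies 7931 bases away and encodes an oocyte protein with a KH-like domain. It was 15.1 TPM at E3.5, 10.4 TPM at E4.5, 0.306 TPM at E5.5 and 0.174 TPM at E6.5 on average and listed at 0 at E7.5, with a log2 difference of -3.12 (SE 0.15, adjusted p = 8.97e-10 in limma) from E4.5 to E5.5. In embryos *Ooep* passed the filter only through E3.5 and E4.5 libraries, so this difference adds no support. It was 9.46 TPM on average in EpiLCs and listed at 0 in all 9 libraries of the other cultures, where it was called lower. The RNA helicase gene *Ddx43*, next to *Ooep*, was at 5.22 TPM in EpiLCs and was called lower in all 3 other cultures, by 1.42 to 2.62 log2 units. Like the 3 genes, *Morc1*, *Ooep* and *Ddx43* passed the filter in cultures only through EpiLCs and had to differ. *Gsta2*, a glutathione transferase gene on the other side, was at 4.25 TPM at E3.5, 62.8 TPM at E4.5 and listed at 0 at E5.5 and E6.5.

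*Dppa1* and *Dppa3* share the name and no sequence family with the 3 genes. *Dppa3*, or Stella, which protects maternal DNA methylation, was at 355, 34.1 and 6.83 TPM on average at E3.5, E4.5 and E5.5. It was called lower from E3.5 to E4.5 and from E4.5 to E5.5, beside 11.9% and 9.47% of all genes. In EpiLCs it was 8.39, 6.82 and 10.3 TPM, and it was called lower in the 3 other cultures by 3.19 to 3.23, having passed the filter there only through EpiLCs. *Dppa1* was at 163 TPM at E3.5 and 21.9 TPM at E4.5, was called lower at both of these steps, and was listed at 0 in all later stages and in every culture. It passed the filter only through E3.5 and E4.5 libraries, so its call from E4.5 to E5.5 adds no support. Of the 5 genes of the KH-domain family of Dppa5a, 4 were tested in embryos, and 3 of these (*Khdc3*, *Khdc1a* and *Khdc1c*) were called lower from E3.5 to E4.5 and 2 (*Khdc3* and *Ooep*) from E4.5 to E5.5, beside 11.9% and 9.47% of all genes. In embryos *Khdc1a* and *Khdc1c* passed the filter only through E3.5, and *Khdc3* and *Ooep* only through E3.5 and E4.5. Apart from that of *Khdc3* from E3.5 to E4.5, these calls add no support. *Khdc3*, a gene of the maternal oocyte complex, was at 644 TPM at E3.5, 93.9 TPM at E4.5 and 0.644 TPM in EpiLCs. Unlike *Dppa5a*, it was thus under 1 TPM in EpiLCs.

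Genes of the 2-cell embryo that depend on Dppa2 and Dppa4 in ESCs were at most a few TPM in sum outside EpiLCs. Of 20 listed, 19 were in the table, and 4 passed the filter in cultures (*Zscan4c*, *Zscan4d*, *Zscan4e* and *Zscan4f*). They passed it only through the EpiLC libraries and so had to be lower in each of the other cultures, where all 4 were called. *Zscan4f*, the highest, was 17.7, 4.93 and 11.7 TPM in EpiLC replicates 1, 2 and 3, and at most 0.0172 TPM on average in the other cultures. The *Zscan4* genes are near-identical copies, so reads could be split between them and their values are uncertain. *Duxf3*, of the Dux gene cluster, was at 0.676 TPM in EpiLCs. The 2-cell list summed to 20.2 to 79.5 TPM in EpiLCs. In embryos none of its genes passed the filter. Its sum was 3.86 to 5.43 TPM at E3.5, 0.211 to 0.648 TPM at E4.5 and, higher again, 1.36 to 2.59 TPM at E5.5. At E6.5 and E7.5 it was at most 0.0653 TPM.

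Of the 3 genes that Dppa2 and Dppa4 are known to keep open, the meiotic genes *Syce1* and *Mael* were high in EpiLCs. *Syce1* was 18.2, 18.9 and 17.4 TPM in EpiLCs and *Mael* 23.7, 34.5 and 32.4 TPM, and both were listed at 0 in all 9 other culture libraries. Both passed the filter in cultures only through EpiLCs, so their lower calls there were fixed by it. In embryos they followed another course. *Mael* was 0.119 TPM at E4.5 and 3.98 TPM at E5.5, where it was called higher (log2 difference 2.16, SE 0.24, adjusted p = 3.60e-06 in limma), as were 14.9% of genes, and *Syce1* was highest at E5.5 with 7.05 TPM. Both were called lower from E5.5 to E6.5, as were 0.48% of genes. *Mael* passed the filter in embryos only through the E5.5 libraries, so its calls into and out of E5.5 add no support. *Nkx2-5*, a heart transcription factor gene, was at 4.00 TPM at E7.5 and was called higher from E6.5 (2.31, SE 0.13, adjusted p = 7.69e-09 in limma), as were 10.6% of genes. It passed the filter in embryos only through the E7.5 libraries, so this call adds no support.

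The 11 chromatin partners, subunits of the MLL and PRC2 histone methyltransferases with Jarid2 and the SUMO ligase gene *Pias4*, were expressed in all groups. Against EpiLCs none of the 11 was called in limma, with 7, 5 and 4 at an unadjusted p below 0.05 in ESC3D, Embryo3D and EpiSCs. Of all genes, 12.4%, 18.8% and 20.4% were called in either direction in these comparisons. The median difference of the 11 was -0.37, -0.11 and -0.01 there, beside 0.01, 0.10 and 0.18 over all genes. With rescaled libraries 1 was called lower in EpiSCs. In embryos *Jarid2* (-1.36, SE 0.09, adjusted p = 1.99e-08) and *Suz12* (-1.03, SE 0.10, adjusted p = 1.08e-06) were called lower from E4.5 to E5.5 in limma, where 9.47% of all genes were, and the other 9 were not. From E6.5 to E7.5, where all 3 Dppa genes were also called lower, none of the 11 was called in limma, with 3 at an unadjusted p below 0.05. Of all genes, 12.6% were called in either direction at this step. *Jarid2* went from 416 TPM at E3.5 and 289 TPM at E4.5 to 112 TPM at E5.5.

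**Figure D4:**
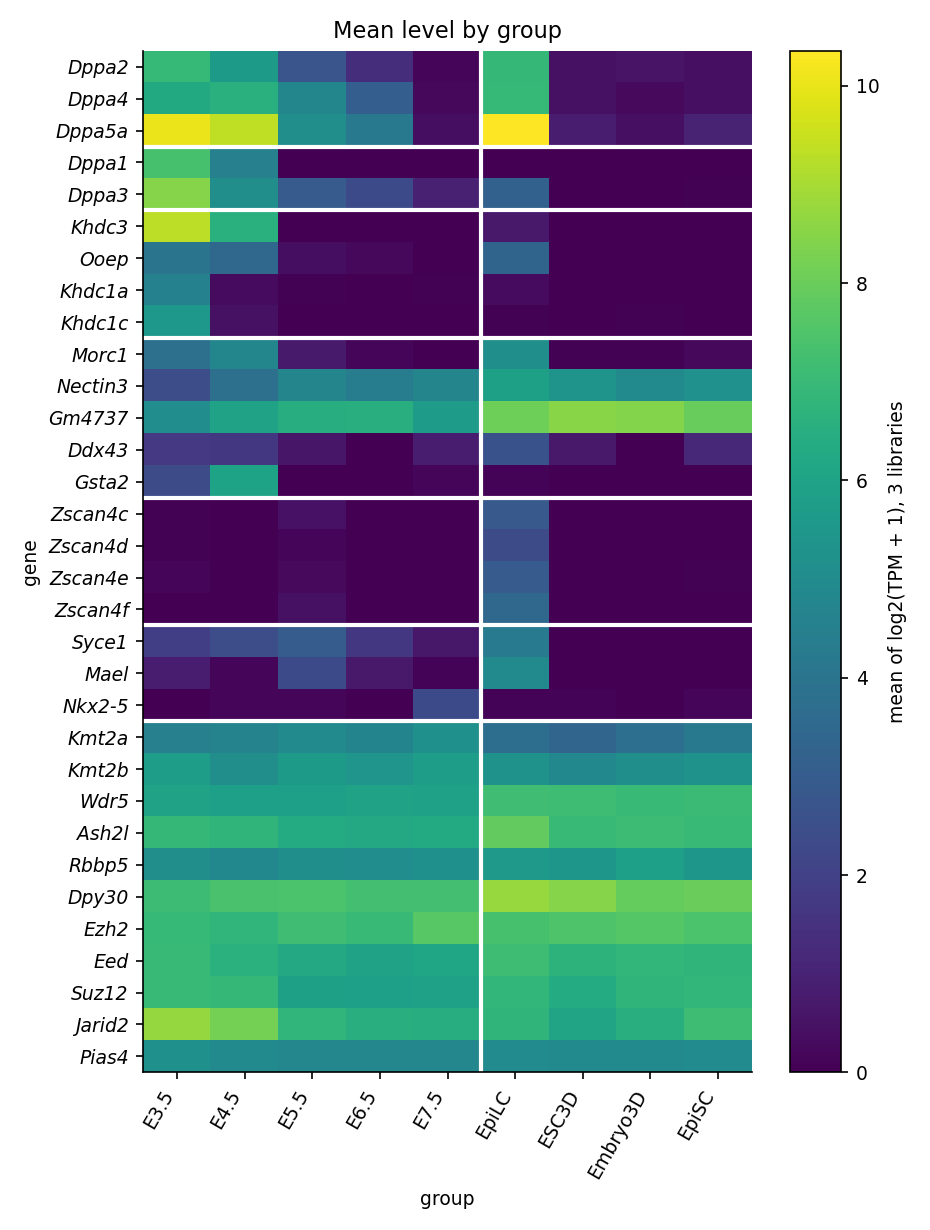
Mean of log2(TPM + 1) over 3 libraries as colour, for the 3 genes, other Dppa genes, KH-domain relatives, neighbouring genes, 2-cell genes, genes kept open and chromatin partners from top to bottom on the y axis, by group on the x axis. White lines part the lists and the embryos from the cultures. The rows of the 3 genes are bright at E3.5, E4.5 and in EpiLCs, the other upper rows follow no single pattern, and the partners at the bottom vary less.

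The genes most like each of the 3 were found by Pearson's r of log2(TPM + 1) over the 27 libraries, among 12593 genes past the filter in all libraries. The libraries share groups and the values span embryos and cultures, so r is given as a description. *Dppa2* was most like *Gm2381* (r = 0.991) and 4 zinc finger genes of chromosome 4, *Zfp987* (0.989), *Zfp988* (0.988), *Zfp985* (0.983) and *Zfp978* (0.980). These 4 lie between 146097298 and 147585198 on mm10, and zinc finger genes of such clusters can share reads, so their values are uncertain. *Dppa4* was most like *Hsf2bp* (0.984), a meiotic recombination gene, followed by *Dppa5a* (0.982), *Rpl10l* (0.977), *Slc9b1* (0.974) and *Dnmt3l* (0.973). *Dppa5a* was most like *Rpl10l* (0.989), *Zfp987* (0.984), *Dnmt3l* (0.983), *Dppa4* (0.982) and *Dppa2* (0.980).

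*Rpl10l* is a retrogene copy of a ribosomal protein gene, expressed in testis, and *Dnmt3l* encodes the cofactor of the de novo DNA methyltransferases. *Dnmt3l* had group means of 8.02, 8.19, 4.15, 3.55 and 1.10 in log2(TPM + 1) from E3.5 to E7.5, 7.24 in EpiLCs and 0.11 to 0.44 in the other cultures. The r of the neighbours *Dppa2* and *Dppa4* was 0.948, below that of either with *Dppa5a*, but Spearman's rho gave the opposite order, with 0.933 for *Dppa2* and *Dppa4*, 0.898 for *Dppa2* and *Dppa5a* and 0.885 for *Dppa4* and *Dppa5a*. In embryos alone their r was 0.916, over 15 libraries, and in cultures alone 0.996, over 12 libraries that fall into EpiLCs and the rest. By Spearman's rho, 2 of the 5 genes most like *Dppa2*, 0 of those most like *Dppa4* and 1 of those most like *Dppa5a* were again among the first 5.

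**Figure D5:**
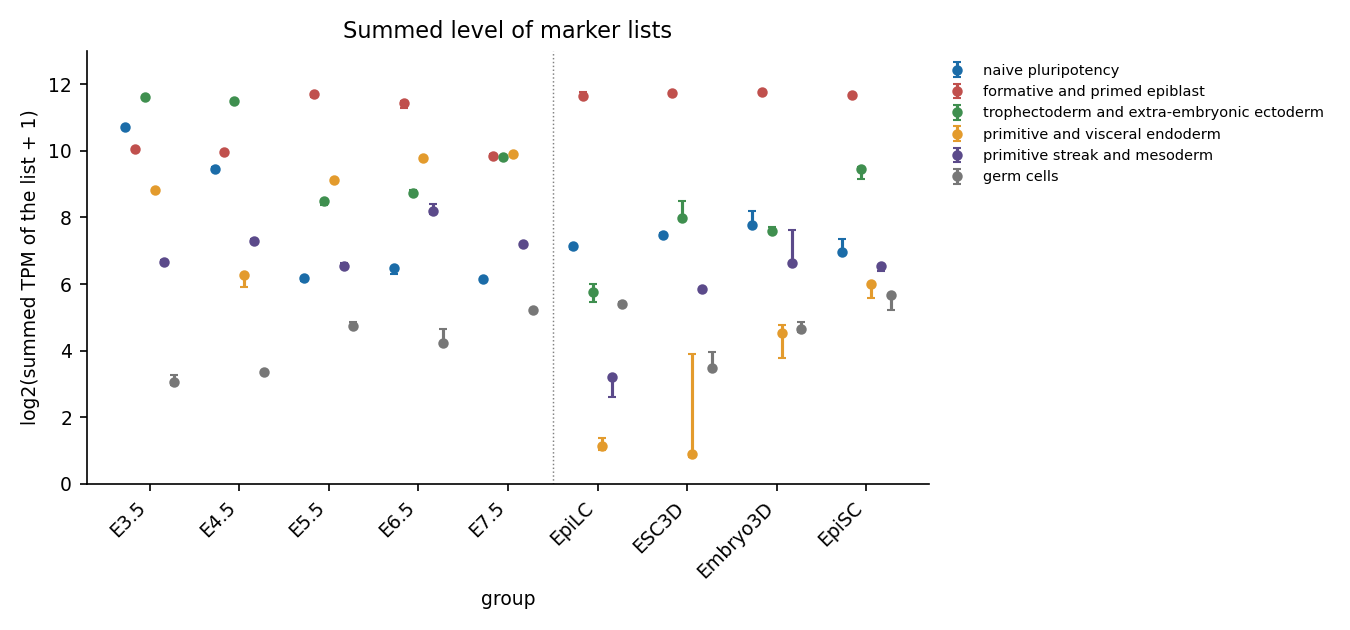
Summed TPM of 6 marker lists as log2(sum + 1) on the y axis, by group on the x axis, with points at the median library and bars from the lowest to the highest of 3 libraries. The trophectoderm list (green) is highest at E3.5 and E4.5, and the endoderm list (orange) is higher at each stage from E4.5 to E7.5.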

How the data were processed

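Bulk RNA-seq of 27 libraries was used (12 in vitro, 15 in vivo) of 35 samples in the series, and its single-cell and bisulfite samples were not analysed here. Reads had been trimmed (cutadapt 2.4) and mapped by STAR to mm10 by the authors, and StringTie gave the deposited values, which are TPM and summed to 1000000 in every library. The depth reached per library is therefore unknown and no counting interval is given. Culture libraries were poly-A selected, whereas embryo libraries were total RNA with ribosomal sequences depleted, so both sets were fitted apart.

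Of 54490 lines, 12 identifiers stood on several lines and were summed, giving 54446 genes. On 56 lines a cell was empty and was taken as 0. Biotypes and transcripts came from the GENCODE vM21 annotation. Tests used limma 3.58.1 in R 4.3.3 on log2(TPM + 1) of the 20774 autosomal protein-coding genes with a TPM above 2 in at least 3 libraries of the fit (11541 in vitro, 11880 in vivo), with all groups in a single fit, eBayes without trend and Benjamini-Hochberg adjustment over the genes of a comparison. The authors used DESeq2, which needs counts, so limma took its place. Calls needed an adjusted p below 0.05 and a log2 difference above 1 in size. The fit was tested on simulated data. Ratios were tested by enumerating all groupings in Python 3.11.15 with numpy 2.4.6, pandas 2.3.3 and scipy 1.17.1.

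Named genes were the 3 members, the fixed lists, the nearest 2 genes on either side, and the 5 genes with the highest r. The members and lists were chosen with earlier results of these data known. Alternatives were a pseudocount of 0.1, no filter, all genes, rescaled TPM, only the compared groups, a replicate block, an intensity trend and leaving out each library. Averaging near-identical replicates, adding the *Dppa5a* pseudogenes and leaving out E7.5 from the ratios were added after the data were seen.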

Additional observations from a re-analysis of the deposited data

How the results depend on the processing

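The 21 differences of the 3 genes that were called (12 in vivo, 9 in vitro) kept their direction and their call under every alternative run, over 159 and 129 values. The 9 in vitro are the differences from EpiLCs, where the filter meant that the 3 genes had to differ. That these 9 kept their call therefore adds no support. Of the 12 not called, *Dppa5a* in Embryo3D minus EpiSC became -1.51 and was called with a pseudocount of 0.1, and *Dppa5a* in E6.5 minus E5.5 ranged from -1.04 to -0.82 when 1 library was left out and was called without E6.5 replicate 2. Leaving out 1 library turned the sign of 6 small differences, none called: *Dppa2* in ESC3D minus EpiSC (-0.050 to 0.12), Embryo3D minus EpiSC (-0.017 to 0.26) and ESC3D minus Embryo3D (-0.20 to 0.081), and *Dppa4* in the same comparisons (-0.18 to 0.22, -0.36 to 0.011 and -0.028 to 0.36). The ratio of *Dppa5a* to *Dppa4* in vitro had an exact permutation p of 0.0816 with a pseudocount of 0.1, and the cause was not tested.

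With a replicate block *Dppa2* in E5.5 minus E4.5 stayed at -2.91 (adjusted p = 3.03e-09 in limma), and no call on the 3 genes changed. Deviations of libraries with the same number had a mean correlation of -0.0299 in vitro and -0.0166 in vivo, so the numbers did not pair the libraries.

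Counts over all genes that moved by over 1.5 times were as follows. With a pseudocount of 0.1, genes higher in ESC3D than EpiSC went from 73 to 129, those higher and lower in ESC3D than Embryo3D from 228 to 374 and from 229 to 345, those higher and lower in E6.5 minus E5.5 from 85 to 136 and from 57 to 126, and those lower in E7.5 minus E6.5 from 231 to 354. With all genes, those higher in Embryo3D than EpiSC went from 123 to 312, those lower in E6.5 minus E5.5 to 191, and those higher in E7.5 minus E6.5 from 1265 to 2041. With rescaled TPM, those higher in ESC3D than EpiSC went to 134 (lower 1068 to 730), those lower in ESC3D than Embryo3D to 149 (431 without ESC3D replicate 3, and 100 with near-identical replicates averaged), and those higher and lower in E7.5 minus E6.5 to 688 and 410. Rescaling also moved the split of higher to lower in EpiSC minus EpiLC from 1756 and 593 to 1367 and 754, and in E7.5 minus E3.5 from 2827 and 1593 to 2159 and 2049. Without the filter, 8 of the 2-cell genes were lower in ESC3D and 8 in Embryo3D than in EpiLC, in place of 4. TPM keeps no depth, which limits what can be said of levels near 0.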
